A study of Mus musculus with 6 samples.

Results

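Glycerolipid acyltransferases and lipins are the enzymes that build triglyceride from glycerol phosphate or from monoacylglycerol. The 10 genes examined were Gpam, Agpat1, Agpat2, Agpat3, Lpin1, Lpin2, Lpin3, Mogat1, Dgat1 and Dgat2, of 22180 genes with a probe set of their own, and they were chosen by symbol for the step each enzyme performs. All 10 were measured, by 11 probe sets in all, and where a gene had more than 1, which was so for Lpin2, the one with the highest mean over the 6 arrays was used.

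The tissue was liver from mice that carried the Creb3l3tm1.1Sad/J allele, a knockout of CREB-H, and were 8 weeks of age per the labels. CREB-H (gene symbol Creb3l3) is a transcription factor held in the membrane of the endoplasmic reticulum until proteolysis frees its active part. Mice of the group called CREB-H here received AAV-CREB-H-ΔTC, a liver-targeting adeno-associated virus with the active form of the factor, and mice of the group called GFP received AAV-GFP, each with 3 mice taken 2 weeks after injection. Every animal thus carried the knockout allele and a virus, and the labels name neither the promoter of the vector nor the sex of the mice.

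In the main route to triglyceride, glycerol phosphate acyltransferases add the first acyl chain to glycerol phosphate, lysophosphatidic acid acyltransferases add the second, and lipins remove the phosphate to leave diacylglycerol. Diacylglycerol acyltransferases then attach the last chain. A shorter route begins with monoacylglycerol, which is best known from the intestine, and in liver the product is stored in lipid droplets or secreted in very low density lipoproteins.

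Signals are given on a log2 scale, so that a difference of 1 is a doubling, and each log2 difference is CREB-H minus GFP with the standard error (SE) of the limma fit. Array medians were 4.98 to 5.01, and precision is limited by having 6 arrays. The supplied gene Creb3l3 read 6.73, 7.25 and 7.58 in CREB-H livers, against 6.55, 5.93 and 6.40 in GFP livers, without overlap. Its log2 difference of 0.89 (SE 0.25) did not pass, with a limma adjusted p of 0.647. The hepatocyte markers Alb, Ttr, Cps1, Tat, Apob, Hpd and Cyp2e1 read at least 12.7 on all arrays, and the remaining one, Serpina1a, read 9.01 to 9.82. The 8 hepatocyte markers had a median log2 difference of 0.03. Replicate 3 of each group stood apart by Y-linked signal, with a mean over Kdm5d, Eif2s3y and Uty of 7.67 in the CREB-H array and 7.83 in the GFP array, against 3.15 to 3.39 on the other 4 arrays. All 6 measured Kupffer cell and macrophage markers were higher with CREB-H, with a median log2 difference of 0.44 and none past the test. Their summed signal ran from 11.11 to 11.91 (log2) in CREB-H livers and from 10.65 to 11.61 in GFP livers, and their part in the values below was not tested. In a whole tissue, fewer cells of a type and less RNA per cell cannot be told apart.

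None of the 10 genes differed between CREB-H and GFP livers after adjustment over all 41345 probe sets (limma adjusted p = 0.705 to 0.996), in a comparison where 2 probe sets, or 0.00484%, passed. The log2 differences were positive in 5 genes and negative in 5, with a median of -0.05, while over all probe sets 46.3% were positive and 53.7% negative with a median of -0.01. At an unadjusted p below 0.05 there were 3 of the 10, against 6.89% of all probe sets: Mogat1 and Agpat2 with lower signal and Agpat3 with higher signal in CREB-H livers. The CREB-H and GFP arrays did not overlap in Mogat1 and Dgat1, both lower with CREB-H, against 7.1% of all probe sets that were lower, 5.23% that were higher and 12.3% in either direction without overlap. In the other 8 genes the spread between mice of 1 group was wider than the difference between the group means.

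**Figure D1:**
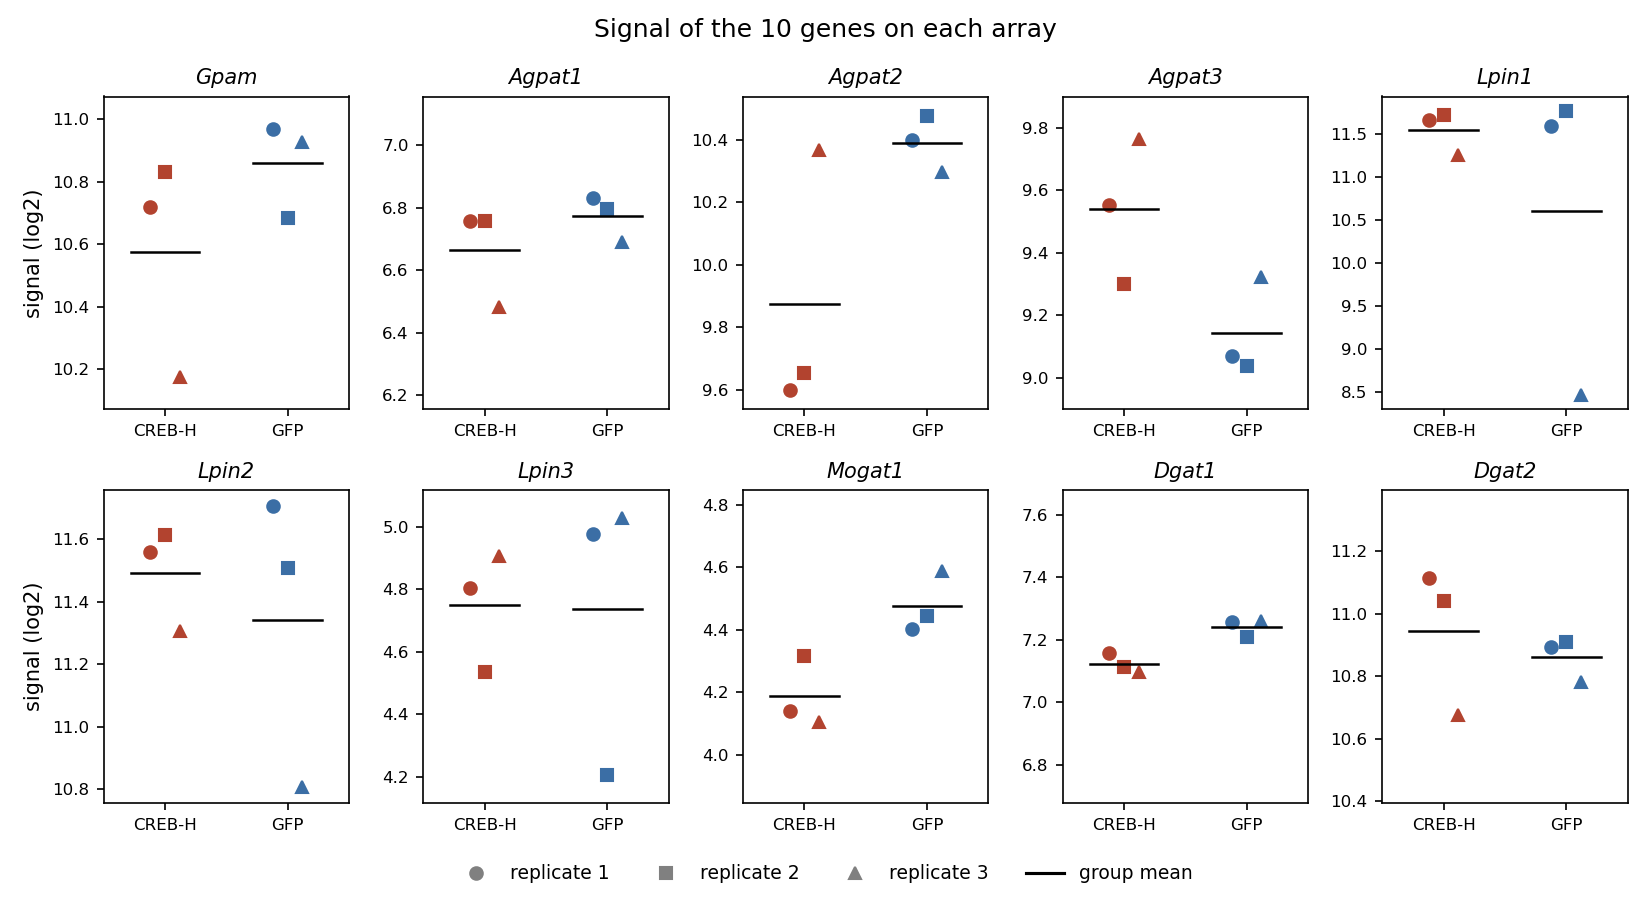
The log2 signal of each of the 10 genes is plotted for the 3 CREB-H and the 3 GFP arrays, with a symbol for each replicate number, a line at the group mean and a vertical scale of its own in each panel. The CREB-H arrays lie below all GFP arrays in Mogat1 and Dgat1, and in Lpin1 a single GFP array, replicate 3 at 8.46, lies far below the other 5.

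Gpam encodes the mitochondrial glycerol phosphate acyltransferase that performs the first acylation, a step known to respond to insulin and SREBP1c. It read 10.72, 10.83 and 10.17 in CREB-H livers, against 10.97, 10.68 and 10.93 in GFP livers. The groups overlapped, and CREB-H replicate 3 was the lowest of all 6 arrays. The log2 difference was -0.28 (SE 0.19, 95% interval -0.74 to 0.17, limma adjusted p = 0.843), and without CREB-H replicate 3 it was -0.08.

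None of the 3 lysophosphatidic acid acyltransferases passed the adjusted test. Agpat2, whose loss causes generalised lipodystrophy in humans and mice, read 9.60, 9.65 and 10.37 in CREB-H livers, against 10.40, 10.48 and 10.30 in GFP livers. CREB-H replicates 1 and 2 lay below every GFP array, whereas CREB-H replicate 3 lay among them. The group means were 9.87 ± 0.43 for CREB-H and 10.39 ± 0.09 for GFP (SD, n = 3 each), a ratio of 0.699 with a 95% interval of 0.492 to 0.993 and a log2 difference of -0.52 (SE 0.21). The unadjusted p of the fit was 0.0464 and the limma adjusted p 0.72, and with 1 array left out the difference lay between -0.76, when CREB-H replicate 3 was dropped, and -0.38, when replicate 1 of that group was.

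Agpat3, an acyltransferase of the endoplasmic reticulum and Golgi that also handles polyunsaturated acyl chains, read 9.55, 9.30 and 9.76 in CREB-H livers, against 9.07, 9.04 and 9.32 in GFP livers. The groups touched only where CREB-H replicate 2 lay just below GFP replicate 3. The means were 9.54 ± 0.23 for CREB-H and 9.14 ± 0.16 for GFP (SD, n = 3 each), a ratio of 1.31 with a 95% interval of 1.02 to 1.69 and a log2 difference of 0.40 (SE 0.15). The limma adjusted p was 0.708, and the difference lay between 0.28 and 0.51 with any 1 array left out. Agpat1, the widely expressed member of the family, read 6.76, 6.76 and 6.48 in CREB-H livers, against 6.83, 6.80 and 6.69 in GFP livers. Its arrays overlapped, with a log2 difference of -0.11 (SE 0.12, limma adjusted p = 0.906).

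The promoter windows of Agpat2 and Agpat3 are shown because these were the lysophosphatidic acid acyltransferases with an unadjusted p below 0.05. Each window holds 250 bases before and 50 after an annotated start, is taken from RefSeq on GRCm38.p6 and is printed 5′ to 3′ on the strand of the gene. Capitals mark the letters ACGTG on either strand, the core shared by sites of many basic leucine zipper and basic helix-loop-helix factors.
Agpat2, chr2:26604368-26604667, minus strand: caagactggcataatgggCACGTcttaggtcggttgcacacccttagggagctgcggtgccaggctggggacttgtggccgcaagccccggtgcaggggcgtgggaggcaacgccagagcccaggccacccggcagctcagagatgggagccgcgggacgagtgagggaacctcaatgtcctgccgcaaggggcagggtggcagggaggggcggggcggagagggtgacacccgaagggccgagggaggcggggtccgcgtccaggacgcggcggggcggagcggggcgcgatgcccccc
Agpat3, chr10:78351651-78351950, minus strand: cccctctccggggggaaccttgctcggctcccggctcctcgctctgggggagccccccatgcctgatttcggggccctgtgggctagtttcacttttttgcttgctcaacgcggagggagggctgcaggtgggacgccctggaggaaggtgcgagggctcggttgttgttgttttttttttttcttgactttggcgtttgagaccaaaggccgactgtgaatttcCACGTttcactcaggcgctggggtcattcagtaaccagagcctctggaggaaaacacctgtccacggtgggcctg
Each window held ACGTG 1 time, at -232 in Agpat2 and at -25 in Agpat3, counted from the annotated start. The Agpat2 window had 72.0% G and C bases and the Agpat3 window 59.0%. ACGTG occurred in 5 of the 13 windows matched to 8 of the genes, and in 19.6% of all 32851 windows. The cyclic AMP response element TGACGTCA and the letters TGACGTG, both searched on both strands, were in none of the 13 windows, against 1.79% and 2.01% of all windows. The shorter TGACG was in 1 window of Lpin2 and 1 of Gpam, against 20.8% of all windows, and the E-box CACGTG, each copy of which also counts as ACGTG on both strands, was in 1 window of Lpin2 and 1 of Lpin3, against 7.15%. Dgat1 and Dgat2 were not matched. A match describes the letters of a window and says nothing about binding.

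Lipins dephosphorylate phosphatidic acid, and lipin 1 also acts in the nucleus as a coactivator with PGC-1α and PPARα. Lpin1 read 11.66, 11.72 and 11.26 in CREB-H livers, against 11.59, 11.77 and 8.46 in GFP livers. A single GFP array was low, and the other 5 arrays lay within 0.51 of each other. The means were 11.55 ± 0.25 for CREB-H and 10.61 ± 1.86 for GFP (SD, n = 3 each), and the log2 difference of 0.94 had an SE of 0.83, a 95% interval of -1.04 to 2.92 and a limma adjusted p of 0.885. Without GFP replicate 3 the difference was -0.13.

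Lpin2, the lipin that is prominent in liver, read 11.56, 11.61 and 11.31 in CREB-H livers, against 11.71, 11.51 and 10.81 in GFP livers. GFP replicate 3 was again the lowest of the 6 arrays. The log2 difference was 0.15 (SE 0.24, limma adjusted p = 0.936), and -0.11 without that array. The further probe set of Lpin2 read 8.88, 9.08 and 9.34 in CREB-H livers, against 9.62, 9.29 and 8.70 in GFP livers. Its log2 difference of -0.10 (SE 0.25, limma adjusted p = 0.965) had the opposite sign, and GFP replicate 3 was the lowest array there too. Lpin3, the third lipin gene, read 4.81, 4.53 and 4.91 in CREB-H livers, against 4.98, 4.21 and 5.03 in GFP livers, with a log2 difference of 0.01 (SE 0.24). That probe set lay below the array median on 5 of the 6 arrays, and detection calls were not used here.

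**Figure D2:**
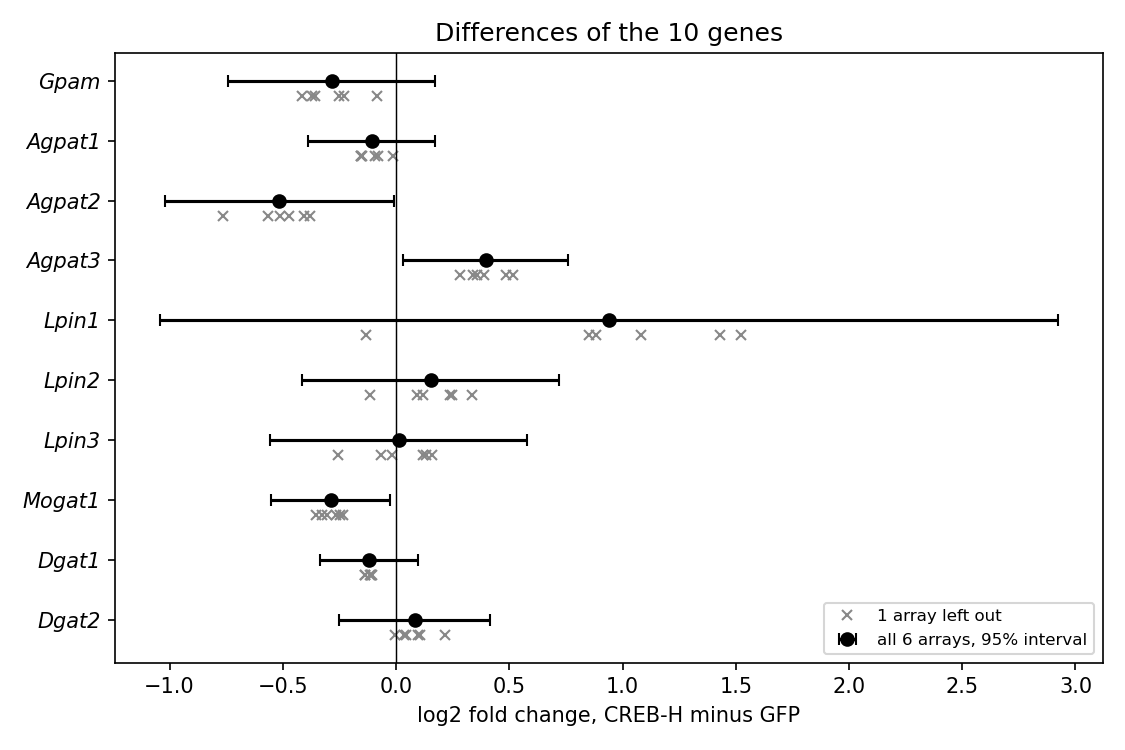
The log2 difference, CREB-H minus GFP, is plotted for each gene as a point with the 95% interval of the limma fit, and crosses give the difference with each of the 6 arrays left out in turn. The intervals of Agpat2, Agpat3 and Mogat1 exclude 0 before adjustment, and in Lpin1 the cross at -0.13 is the fit without GFP replicate 3.

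Mogat1 encodes a monoacylglycerol acyltransferase, an enzyme of the shorter route that is known to increase in fatty liver. It read 4.14, 4.32 and 4.11 in CREB-H livers, against 4.40, 4.44 and 4.59 in GFP livers. Every CREB-H array was below every GFP array, and all 6 values were below the median of their arrays. The means were 4.19 ± 0.11 for CREB-H and 4.48 ± 0.10 for GFP (SD, n = 3 each), a ratio of 0.818 with a 95% interval of 0.682 to 0.982. The log2 difference of -0.29 (SE 0.11) had an unadjusted p of 0.0358 and a limma adjusted p of 0.705. An exact permutation test (two-sided) gave p = 0.1, which is the lowest value a design of 3 against 3 can reach. Groups that do not overlap always reach that value, so the test adds nothing to the lack of overlap. The two-sided exact permutation test gave p = 0.2 for Agpat2 and for Agpat3. Apart from Dgat1, given below, the two-sided exact permutation test gave p of 0.3 or more in the remaining genes. For Mogat1, leaving out any 1 array gave log2 differences of -0.35 to -0.23.
The promoter window of Mogat1 is shown because it had the lowest unadjusted p of the 10 genes, and it is taken from the same source and printed in the same way as those of Agpat2 and Agpat3.
Mogat1, chr1:78510810-78511109, plus strand: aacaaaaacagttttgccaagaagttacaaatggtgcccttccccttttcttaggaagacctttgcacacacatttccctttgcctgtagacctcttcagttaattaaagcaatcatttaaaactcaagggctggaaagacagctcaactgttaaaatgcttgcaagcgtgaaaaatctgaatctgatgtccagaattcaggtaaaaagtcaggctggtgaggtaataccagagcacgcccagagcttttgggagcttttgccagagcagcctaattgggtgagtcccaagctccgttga
None of the 5 motifs was found in the Mogat1 window, which had 43.7% G and C bases.

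Yeats2, Chrna2 and Vegfc were the genes whose signal most resembled that of Mogat1 over the 6 arrays, by Pearson correlation among 19394 named genes. The correlations were 0.992, 0.992 and 0.988, with Spearman coefficients of 1.00, 0.943 and 0.943. They were picked as the highest of many over 6 arrays that also differ by group, and are given as a description.

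The last acylation is shared by enzymes that are unrelated in sequence, of which DGAT2 works with newly made fatty acids and associates with lipid droplets, while DGAT1 stays in the endoplasmic reticulum. Dgat1 read 7.16, 7.11 and 7.10 in CREB-H livers, against 7.26, 7.21 and 7.26 in GFP livers. The groups did not overlap, but the values lay close together, with means of 7.12 ± 0.03 for CREB-H and 7.24 ± 0.03 for GFP (SD, n = 3 each). The log2 difference was -0.12 (SE 0.09, limma adjusted p = 0.864), and the ratio of 0.921 had a 95% interval of 0.792 to 1.07. The two-sided exact permutation test gave p = 0.1, which here too only restates the lack of overlap. Dgat2 read 11.11, 11.04 and 10.68 in CREB-H livers, against 10.89, 10.91 and 10.78 in GFP livers. CREB-H replicates 1 and 2 lay above all GFP arrays and CREB-H replicate 3 below them. The log2 difference was 0.08 (SE 0.14, 95% interval -0.25 to 0.41, limma adjusted p = 0.944).

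Replicate 3 of each group, which carried the Y-linked signal, held many of the extreme values. CREB-H replicate 3 was the lowest of the 6 arrays in 5 of the 10 genes (Gpam, Agpat1, Mogat1, Dgat1 and Dgat2) and the highest in Agpat3. GFP replicate 3 was the lowest in Lpin1 and Lpin2 and the highest in Lpin3, Mogat1 and Dgat1. Within the 4 arrays without Y-linked signal the log2 difference of Agpat2 was -0.81, and between the 2 arrays with it 0.07. The values were 0.01 and 2.80 for Lpin1 and -0.05 and -0.75 for Gpam, in the same order. Mogat1 and Agpat3 kept 1 sign in both sets of arrays, with -0.19 and -0.48 for Mogat1 and 0.37 and 0.44 for Agpat3. So did Dgat1, at -0.10 and -0.16, Agpat1, at -0.06 and -0.21, and Gpam and Lpin1 with the values above. In Mogat1 and Dgat1 the lack of overlap fixed this outcome in advance, so the kept sign adds nothing there. An interaction of group with Y-linked signal, fitted to all probe sets, called 0 of them after adjustment in limma, while 2852 had an unadjusted p below 0.05. Its error comes from the 4 arrays without Y-linked signal alone, and it was added after the values of single arrays were seen, so no p-value of a single gene is drawn from it. With 1 array of each group in the set with Y-linked signal, the property of that mouse and the Y-linked signal cannot be told apart.

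**Figure D3:**
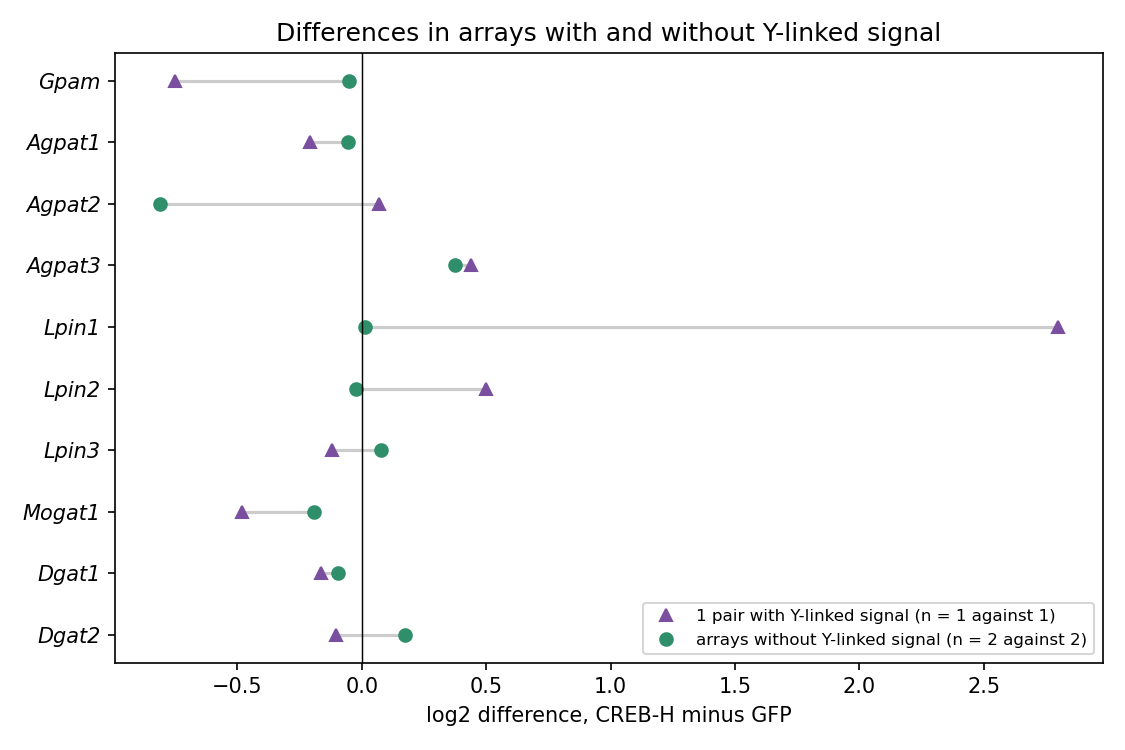
The log2 difference, CREB-H minus GFP, is plotted for each gene between the 2 arrays with Y-linked signal (triangles, 1 against 1) and among the 4 arrays without it (circles, 2 against 2). The sets lie far apart in Lpin1, at 2.80 and 0.01, and close together in Agpat3, at 0.44 and 0.37.

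Deviations from the group means were compared between the 10 genes over the 6 arrays, in 45 pairs. The highest Pearson correlations were 0.97 for Agpat1 with Dgat2 and 0.95 for Lpin1 with Lpin2, and the lowest was -0.93 for Gpam with Agpat2. The permutation p was 0.0111 for Agpat1 with Dgat2, 0.00833 for Lpin1 with Lpin2 and 0.0139 for Gpam with Agpat2, and none held after Benjamini-Hochberg adjustment over the 45 pairs (0.208 for each). The Spearman coefficients were 0.886, 0.943 and -0.886, with permutation p of 0.0333, 0.0167 and 0.0333 and adjusted values of 0.375 for each. Deviations from a group mean are not independent within the group, so these permutation p-values are approximate. Without the 2 arrays farthest from the median of the gene named first, Pearson's r was 0.73, 0.97 and -0.56 over 4 arrays.

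The neighbouring genes of the pathway were examined in 5 lists of 41 genes, of which 40 were measured. No gene of these lists passed over all probe sets (lowest limma adjusted p = 0.647), and 21 were higher and 19 lower with CREB-H, with a median log2 difference of 0.01. At an unadjusted p below 0.05 there were 6 higher and 1 lower, against 2.93% and 3.97% of all probe sets. That share includes probe sets without a listed gene. Among 22180 genes fitted in limma with 1 probe set each, the lean was the other way, with 852 higher and 663 lower.

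Of the genes for glycerol phosphate supply, none passed the adjusted test. Gpd1l, a cytosolic glycerol phosphate dehydrogenase related to Gpd1, read 7.35, 7.25 and 7.13 in CREB-H livers, against 6.74, 6.96 and 6.88 in GFP livers. Gpd2, the mitochondrial enzyme that oxidises glycerol phosphate, read 8.00, 8.38 and 7.83 in CREB-H livers, against 8.45, 8.43 and 8.61 in GFP livers. Neither overlapped between the groups, and the log2 differences were 0.39 (SE 0.11) for Gpd1l and -0.43 (SE 0.16) for Gpd2, with limma adjusted p of 0.647 and 0.696. Gpd1 differed by -0.58 (SE 0.33) with overlap, and by -0.19 without GFP replicate 3, which was its highest array at 10.82. The list of 5 measured genes had 3 higher and 2 lower and a median of 0.00; Gk was not analysed here.

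Among the 6 other acyltransferases of glycerol phosphate and its first product, 1 was higher and 5 were lower with CREB-H, with a median of -0.03. Gpat3 and Gpat4, the glycerol phosphate acyltransferases of the endoplasmic reticulum, differed by -0.64 (SE 0.46) and -0.23 (SE 0.24), and Agpat4 by 0.15 (SE 0.18). Gpat3 spanned 7.45 to 8.96 in CREB-H livers and 8.40 to 9.56 in GFP livers, and replicate 3 was the lowest of each group. Its difference was -0.16 without CREB-H replicate 3. Of the 13 genes on the branches of phosphatidic acid and diacylglycerol 8 were higher and 5 lower, with a median of 0.09. Dgka, a kinase that turns diacylglycerol back into phosphatidic acid, read 8.49, 8.38 and 9.35 in CREB-H livers, against 8.08, 7.78 and 7.92 in GFP livers. These arrays did not overlap, with a log2 difference of 0.81 (SE 0.26, limma adjusted p = 0.664) that was 0.51 without CREB-H replicate 3. Plpp2, a lipid phosphate phosphatase, differed by 0.31 (SE 0.18) and Ptpmt1, which acts in cardiolipin synthesis, by -0.22 (SE 0.12). Of the 6 other enzymes of monoacylglycerol and diacylglycerol 1 was higher and 5 were lower, with a median of -0.06. The wax synthases Awat1 and Awat2 differed by -0.27 (SE 0.16) and 0.14 (SE 0.13), and Dgat2l6 by -0.18 (SE 0.12).

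Transcription factors and other regulators of the pathway were higher with CREB-H in 8 of 10 genes, with a median log2 difference of 0.35 and none past the adjusted test, where 46.3% of all probe sets were higher. At an unadjusted p below 0.05 there were 4, all higher, against 2.93% of all probe sets and 852 of 22180 genes fitted with 1 probe set each. Srebf1, which encodes the SREBP1 activators of fatty acid and glycerolipid synthesis, read 7.22, 6.87 and 7.03 in CREB-H livers, against 5.97, 6.34 and 6.86 in GFP livers. All 3 CREB-H arrays lay above the GFP arrays, by a narrow margin over GFP replicate 3, and the log2 difference was 0.65 (SE 0.23, limma adjusted p = 0.692). Ppara, the fatty acid sensor of the hepatocyte, read 10.04, 9.73 and 10.12 in CREB-H livers, against 9.21, 9.12 and 9.68 in GFP livers, also without overlap. Pparg, which drives lipid storage, read 7.60, 6.73 and 7.08 in CREB-H livers, against 5.85, 5.92 and 6.85 in GFP livers. In Pparg the groups overlapped, because GFP replicate 3 lay above CREB-H replicate 2. The coactivator gene Ppargc1b, which lies outside the rule for naming genes and was chosen after its values were seen, differed by 0.61 (SE 0.22). All 4 of these genes differed less between the arrays with Y-linked signal than among those without it. The values were 0.17 and 0.89 for Srebf1, 0.44 and 0.72 for Ppara, 0.23 and 1.28 for Pparg, and 0.17 and 0.84 for Ppargc1b. A reason for this was not tested. Among the regulators of lipins, the phosphatase subunits Ctdnep1 and Cnep1r1, also named after their values were seen, differed by -0.11 (SE 0.19) and 0.22 (SE 0.12).

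**Figure D4:**
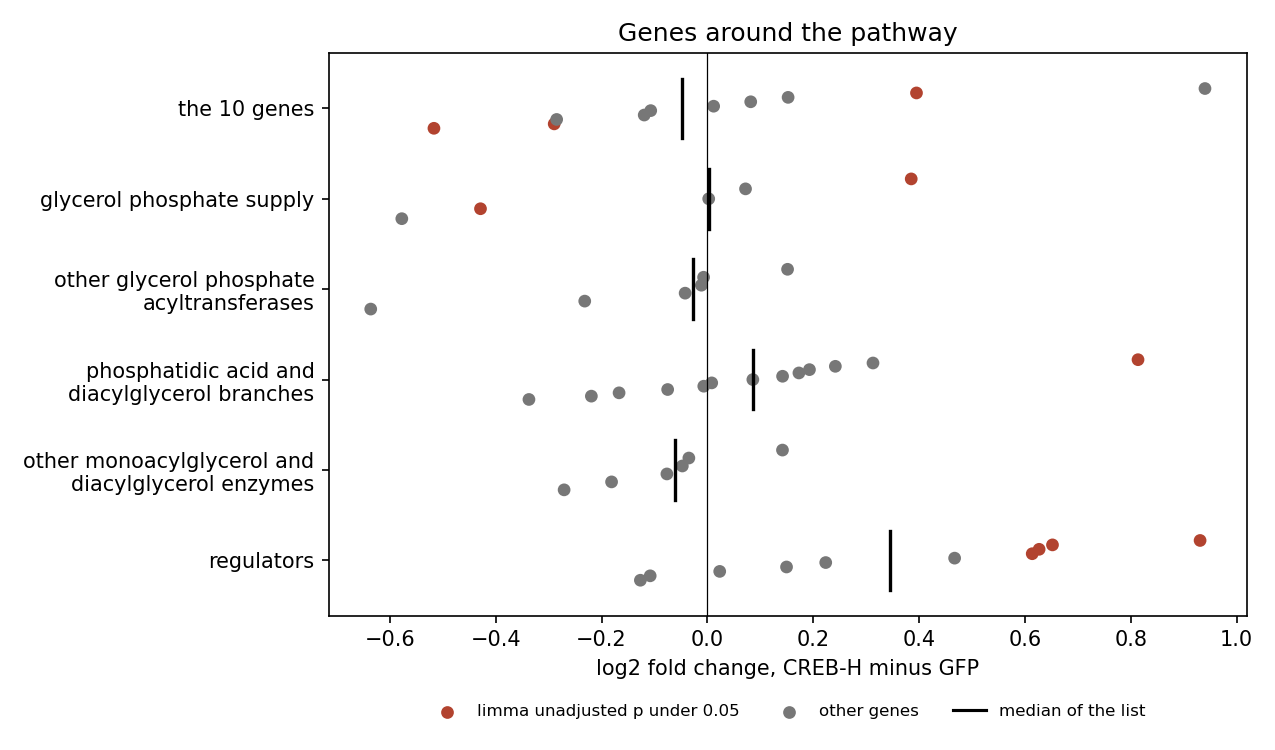
Each point is the log2 difference, CREB-H minus GFP, of 1 gene, for the 10 genes and the 5 lists around them, with a line at the median of each list and red points for a limma unadjusted p below 0.05. The median of the regulators is 0.35, those of the other 5 rows lie between -0.06 and 0.09, and no gene plotted passed after adjustment over all probe sets.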

How the data were processed

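RNA from 6 livers was hybridised to 1 array each. The authors deposited 1 signal on a log2 scale for each array and probe set, and the submitters' processing notes name the Transcriptome Analysis Console. Its version, normalization and filters are not stated there; log2 is taken from the range of the values, 1.42 to 13.9.

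Genes were named through the platform annotation of GEO, with 23521 probe sets naming 1 gene, 1814 several and 16010 not listed; 23328 matched RefSeq by Entrez ID. All 41345 probe sets were fitted with limma 3.58.1 (R 4.3.3; lmFit, eBayes, group as the single term), two-sided, with Benjamini-Hochberg adjustment at 0.05, and the fit was tested on simulated data. Whether the mice of a group shared a litter is not given, so p-values set the group difference against the spread between these mice only. With group as the single term, that spread includes any difference between replicate 3, with its Y-linked signal, and the other arrays of a group. Deviations of same-numbered arrays correlated at 0.08, 0.13 and 0.33 and were not treated as pairs. The highest correlation with a GFP array of another number was 0.12, 0.16 and -0.20 for CREB-H replicates 1, 2 and 3.

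Members, lists and alternatives were chosen with earlier results of these data known. Named were the 10 genes, Creb3l3 and Apoa4, 3 genes per list by lowest unadjusted p, and 3 genes most like the member of lowest p. Other lists held markers of stellate, endothelial, cholangiocyte, lymphocyte, adipocyte and skeletal muscle cells. Alternatives were quantile normalization, median centring, filters on the dimmest 25% or 50%, limma-trend, robust limma-trend, array weights, a replicate block, each array left out, a term for Y-linked signal, the arrays without it, and other rules for several probe sets of a gene; the interaction was added after the data were seen. Figures used matplotlib 3.10.9.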

Additional observations from a re-analysis of the deposited data

How the results depend on the processing

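No alternative brought any of the 10 genes past the threshold: of 178 values over 18 alternatives, 171 kept direction and side and 7, in 4 genes, turned sign (lowest limma adjusted p = 0.480). The filters, limma-trend, robust limma-trend, the replicate block and the term for Y-linked signal leave a log2 difference unchanged. So does adjusting over genes with 1 probe set each. Under those settings only the adjusted p could move, so a kept sign there is no support. Among the 10 genes, averaging over probe sets could move Lpin2 alone, from 0.15 to 0.03 (log2). The others had 1 probe set each, so their kept sign there is no support either. With the Y-linked arrays of both groups left out, Lpin2 was -0.0215 (log2). With 1 array left out the log2 difference ran from -0.13 to 1.52 in Lpin1, from -0.11 to 0.34 in Lpin2, from -0.25 to 0.16 in Lpin3 and from -0.00285 to 0.22 in Dgat2. In Agpat4 it ran from -0.00749 to 0.29. Genes that were higher numbered 3 to 5 with 1 array left out. Without CREB-H replicate 2, 2 probe sets of the table passed, and with any other single array left out 0 did (2335 to 3155 at an unadjusted p below 0.05). Those 2 were both higher with CREB-H, whereas all 6 arrays gave 1 higher and 1 lower, so the calls were not the same 2. There were 0 with the replicate block (3224 unadjusted) and 0 on the 4 arrays lacking Y-linked signal (3338 unadjusted), and 1 with a term for that signal. The pairing by number was not borne out for replicates 1 and 2, whereas the arrays of replicate 3 resembled each other most. The block changed no call among the 10 genes. Without the dimmest 50% the list of other glycerol phosphate acyltransferases had a median of -0.14, cholangiocyte markers -0.36 and lymphocyte markers 0.043. The cholangiocyte value was then that of Sox9 alone. Krt19, Krt7 and Epcam, which this filter left out, differed by 0.38, 0.25 and 0.13. Mogat1 and Lpin3 were also not measured under this filter. The branches of phosphatidic acid and diacylglycerol had a median of 0.22 with the Y-linked arrays left out and -0.0141 to 0.21 with 1 array left out. With the Y-linked arrays left out, medians were -0.0213 for hepatocyte, 0.0767 for cholangiocyte and -0.19 for skeletal muscle markers. With 1 array left out they ran from -0.0114 to 0.0574, from 0.11 to 0.29 and from -0.14 to -0.00386. Causes were not tested. No scaling moved the median of all probe sets by more than 0.1, and detection calls were not used here.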

Other observations

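Signal of Lpin1 in GFP replicate 3 differed by -3.22 (log2) from the mean of the other GFP arrays, and 25 of 22180 genes, Lpin1 included, or 0.113%, had a gap at least as negative there. In 5 of these 25, Lpin1, Mt1, Mt2, Nipal1 and Cyp17a1, the other 5 arrays lay within 1 of each other. The genes most like Lpin1 over the 6 arrays, a comparison chosen after its values were seen, were Per1, a clock gene, Sult1a1, a sulfotransferase, and Gna15, with Pearson correlations of 0.999, 0.995 and 0.994 and Spearman coefficients of 0.943, 0.657 and 0.829. Per1 read 8.80, 8.90 and 8.65 in CREB-H livers, against 8.78, 8.86 and 7.36 in GFP livers. Gna15 lay near the array medians, at 4.98, 4.99 and 4.96 against 4.99, 5.02 and 4.74. Its gap in GFP replicate 3 was only -0.27, so its high correlation does not reflect a drop as large as that of Lpin1. Without GFP replicate 3, the correlations with Lpin1 were 0.957 for Per1, 0.755 for Sult1a1 and 0.828 for Gna15 over 5 arrays.

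Apoa4, an apolipoprotein of triglyceride-rich particles, was 1 of the 2 probe sets of the table that passed (log2 difference 3.70, SE 0.18, limma adjusted p = 0.00786). Over the 18 alternatives its difference lay between 3.50 and 3.86, and the call held in 11 of them, with limma adjusted p up to 0.516. Markers of other cells had median log2 differences of 0.20 for stellate cells and fibroblasts, 0.19 for endothelial cells, 0.19 for cholangiocytes, 0.21 for lymphocytes, 0.08 for adipocytes and -0.08 for skeletal muscle, and none of these markers passed the adjusted test.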
